A study of Mus musculus with 4 samples.

Results

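The genes described here are 36 genes of antigen presentation and of the interferon response, chosen by symbol from the 32285 genes of the count tables. They fall into 10 genes of MHC class I presentation (H2-K1, H2-D1, H2-T23, B2m, Tap1, Tap2, Tapbp, Psmb8, Psmb9 and Nlrc5), 7 genes of class II presentation (H2-Aa, H2-Ab1, H2-Eb1, H2-DMa, H2-DMb1, Cd74 and Ciita) and 19 interferon-induced genes or interferon signalling factors (Ifit1, Ifit2, Ifit3, Ifi27, Ifi35, Ifitm1, Ifitm2, Ifitm3, Isg15, Stat2, Irf1, Irf7, Irf9, Bst2, Usp18, Rsad2, Ly6e, Gbp2 and Gbp3). They were measured by droplet single-cell RNA sequencing (10x Genomics) of mouse eye tissue that holds the retinal pigment epithelium (RPE), a pigmented sheet of support cells next to the rods and cones, together with the choroid, its bed of blood vessels. The study, by its title, asks about RPE mitochondria and fibrosis under the retina. Its groups were Vldlr-/- mice, which lack the very low density lipoprotein receptor, and wild-type (WT) mice, each at ages of 1 month and 2 months. All 4 libraries came from the back of the eye after removal of the front of the eye and the neural retina, enzymatic digestion and depletion of dead cells. Each group was 1 library, and the number, sex and background strain of the mice behind it are not given in the labels.

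Class I molecules (H2-K1, H2-D1 and the non-classical H2-T23, each paired with B2m) display peptides cut by the immunoproteasome (Psmb8, Psmb9), carried by the Tap1-Tap2 transporter and loaded with the help of Tapbp. Nlrc5 is their transcriptional coactivator. Class II molecules (H2-Aa with H2-Ab1, and H2-Eb1) are carried by professional antigen-presenting cells, guided by the invariant chain Cd74, loaded by H2-DMa and H2-DMb1 and switched on by Ciita. Type I interferons act, with Stat2 and Irf9 among the factors, on a response element in the promoters of genes such as Ifit1 and Isg15, whereas class II promoters carry X and Y (CCAAT) boxes that assemble the factors to which Ciita binds.

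The sequences below are promoter windows of 8 of these genes. Ifit1, Ifit3, Isg15, Rsad2 and Bst2 are shown because each was at least 2-fold lower in some class of Vldlr-/- cells. Their windows carry the interferon response element, as that of B2m does. H2-Eb1 and H2-Aa carry CCAAT, which is not particular to class II promoters, and H2-Aa also carries an X2-box core. Each runs 5′ to 3′ on the gene's own strand from 140 to 31 bases before the RefSeq start (RefSeq, GRCm38.p6). No window overlaps an annotated exon. Capitals mark the core of the interferon response element, a pair of GAAA half-sites spaced by 2 bases (TTTC half-sites on the other strand), in the first 6 sequences, and CCAAT, read on either strand, or TGACGNNA, an X2-box core, in the 2 class II sequences. CCAAT was not marked in the first 6, though the B2m window also holds it. The 3 matches of Isg15 overlap one another, as do the 2 of Bst2. The windows lie at chr19:34640749-34640858 (plus strand) for Ifit1, chr19:34583389-34583498 (plus) for Ifit3, chr4:156200849-156200958 (minus) for Isg15, chr12:26456483-26456592 (minus) for Rsad2, chr8:71537503-71537612 (minus) for Bst2, chr2:122147547-122147656 (plus) for B2m, chr17:34305727-34305836 (plus) for H2-Eb1 and chr17:34287854-34287963 (minus) for H2-Aa.
Ifit1: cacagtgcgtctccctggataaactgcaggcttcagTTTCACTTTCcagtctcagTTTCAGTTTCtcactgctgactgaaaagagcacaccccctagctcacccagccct
Ifit3: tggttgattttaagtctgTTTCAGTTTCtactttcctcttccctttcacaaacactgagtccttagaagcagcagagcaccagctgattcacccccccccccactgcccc
Isg15: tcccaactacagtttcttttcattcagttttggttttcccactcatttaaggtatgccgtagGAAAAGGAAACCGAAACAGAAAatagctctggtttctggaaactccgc
Rsad2: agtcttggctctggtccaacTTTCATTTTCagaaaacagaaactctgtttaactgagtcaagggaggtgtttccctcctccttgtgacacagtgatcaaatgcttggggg
Bst2: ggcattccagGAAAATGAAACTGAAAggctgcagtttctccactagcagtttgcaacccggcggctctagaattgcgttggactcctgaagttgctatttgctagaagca
B2m: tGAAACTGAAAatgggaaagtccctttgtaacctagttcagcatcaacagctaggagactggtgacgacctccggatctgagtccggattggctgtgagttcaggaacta
H2-Eb1: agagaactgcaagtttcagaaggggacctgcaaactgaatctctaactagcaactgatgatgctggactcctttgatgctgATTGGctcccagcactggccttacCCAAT
H2-Aa: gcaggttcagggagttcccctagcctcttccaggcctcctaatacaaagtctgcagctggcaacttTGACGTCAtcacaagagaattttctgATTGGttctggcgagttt

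A RefSeq promoter was matched by symbol for 28 of the 36 genes, and 250 bases before the start were searched on both strands. The paired GAAA core lay in 9 of 16 interferon promoters (Ifit1, Ifit3, Isg15, Rsad2, Bst2, Gbp2, Gbp3, Ifitm2 and Stat2), in 2 of 8 class I promoters (B2m and H2-T23) and in 0 of 4 class II promoters, against 3.46% of the 27025 promoters in the table. CCAAT lay in 4 of 4 class II promoters, 7 of 8 class I promoters and 5 of 16 interferon promoters, against 37.5% of all promoters. TGACGNNA lay in 1 of 4 class II promoters (H2-Aa), 2 of 8 class I promoters (Psmb9 and Tap1) and 0 of 16 interferon promoters, against 6.50% of all. A match describes the letters of the window and shows no binding.

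UMIs (unique transcript molecules) were counted in 7943 barcodes. Of these, 6555 passed limits of 300 or more detected genes and no more than 30% UMIs from mitochondrial genes, and 6529 were analysed after 26 were marked as doublets. Total UMIs were 12022513 in the Vldlr-/- and 11194301 in the WT library at 1 month, and 16292472 in the Vldlr-/- and 23070271 in the WT library at 2 months. Cells were clustered without the 36 genes, and clusters were named from marker genes as "X-like". Such rebuilt names may differ from the study's own. The RPE-like class, defined by genes such as Rpe65 and Ttr, held 155 Vldlr-/- and 221 WT cells at 1 month and 564 Vldlr-/- and 1268 WT cells at 2 months. The summed RPE markers there lay between 64328 and 110592 CPM (UMIs per 1000000 UMIs of that class and library). For Vldlr itself, the deleted gene, 4 UMIs (11.5 CPM) remained in the Vldlr-/- library of 1 month, against 139.6 CPM in WT, and at the later age the RPE-like level was 27.7 CPM in Vldlr-/- and 181.6 CPM in WT. The part of the gene that was deleted is not given in the labels, so the remaining UMIs cannot be assigned to an intact transcript. The ages were counted with different software versions, so age and counting cannot be told apart and the ages are not compared here. A single barcode sequence was shared between libraries, the Vldlr-/- libraries of 1 and 2 months.

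Vldlr-/- cells were set against WT cells of the same class and age wherever both libraries held at least 30 cells, which gave 13 comparisons. With 1 library per group there is no replicate error, and no test was made. Intervals are exact 95% intervals that cover counting error only, Poisson for levels, conditional binomial for ratios and Clopper-Pearson for shares. A gene counts as measured with at least 30 UMIs in the pair of libraries, and as lower or higher only when it was at least 2-fold apart after 0.5 counts were added to each library. The log2 ratios run from Vldlr-/- over WT.

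Nearly all measured class I genes were inside 2-fold between Vldlr-/- and WT cells of the same class. Over the 13 comparisons the 10 genes gave 93 measured ratios, of which 1 was lower and 0 were higher. Among all measured genes the share called lower ran from 0.967% (RPE-like, 2 months) to 5.29% (the cluster led by Cox8b, 2 months). The share called higher ran from 1.16% (B-like, 1 month) to 4.16% (rod-like, 1 month). Against these shares, 1 and 0 of 93 do not set class I genes apart. B2m, the light chain shared by every class I molecule, was at 533 CPM (186 UMIs) in Vldlr-/- and 465 CPM (243 UMIs) in WT RPE-like cells at 1 month, a log2 ratio of 0.20 (-0.09 to 0.48). At 2 months it was at 274 CPM (2100 UMIs) in Vldlr-/- and 265 CPM (3632 UMIs) in WT RPE-like cells, a log2 ratio of 0.05 (-0.03 to 0.13). The interval at 2 months keeps the difference in these 2 libraries well inside 2-fold, as far as counting error goes. H2-K1, a classical heavy chain, was at 47.9 CPM in Vldlr-/- and 38.7 CPM in WT RPE-like cells at 2 months (log2 ratio 0.31, 0.11 to 0.50). H2-D1, the other classical heavy chain, was at 21.2 CPM in Vldlr-/- and 17.2 CPM in WT (0.30, 0.00 to 0.59). Tapbp, the tapasin that bridges the transporter and the heavy chain, was at 38.1 CPM in Vldlr-/- and 37.8 CPM in WT (0.01, -0.20 to 0.22).

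The summed class I level separated cell classes far more than genotypes. At 1 month the 10 genes together made up 8719 CPM in Vldlr-/- and 10350.3 CPM in WT cells of a cluster led by Lyz2, Lst1 and Ear2, 7332 CPM in Vldlr-/- and 7618 CPM in WT T-like cells, and 4739.7 CPM in Vldlr-/- and 5735 CPM in WT B-like cells. They made up 1305 CPM in Vldlr-/- and 1513 CPM in WT fibroblast-like cells, and 710.1 CPM in Vldlr-/- and 650.1 CPM in WT RPE-like cells. Among classes with at least 30 cells in both libraries at 2 months, macrophage-like cells led with 4886 CPM in Vldlr-/- and 5246 CPM in WT, ahead of endothelial-like cells with 2259.9 CPM in Vldlr-/- and 2669 CPM in WT. Fibroblast-like cells had 1157 CPM in Vldlr-/- and 1117 CPM in WT, mural-like cells 561 in Vldlr-/- and 523 in WT, and RPE-like cells 403 in Vldlr-/- and 380.1 in WT. Neighbours among the classes named here lay further apart than the Vldlr-/- and WT libraries of either class, except the Lyz2-led and T-like cells. Rod-like cells were lowest among these classes, at 78.8 CPM in Vldlr-/- and 77.7 CPM in WT at 2 months. Several class I sums were lower in Vldlr-/- with intervals below 0. Their log2 ratios were -0.27 in B-like, -0.25 in Lyz2-led and -0.21 in fibroblast-like cells of 1 month, and -0.24 in endothelial-like cells of 2 months. T-like cells of 1 month (-0.06) and macrophage-like cells of 2 months (-0.10) had smaller ones. In RPE-like cells of 2 months the ratio was 0.08 (0.02 to 0.15).

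The single class I gene that passed the 2-fold rule was Tap1, a subunit of the peptide transporter, in endothelial-like cells at 2 months. It had 27 UMIs (17.8 CPM) in 97 Vldlr-/- cells and 34 UMIs (36.6 CPM) in 74 WT cells, a log2 ratio of -1.03 (-1.82 to -0.27). Its partner Tap2 had 60.1 CPM in Vldlr-/- and 70.0 CPM in WT endothelial-like cells (-0.22, -0.70 to 0.26). The Tap1 ratio was inside 2-fold once the barcode with the most Tap1 UMIs was left out of each library, and also once the highest doublet scores were removed. Psmb8, an immunoproteasome subunit, had 18 UMIs in Vldlr-/- and 9 in WT RPE-like cells at 2 months, below the UMI minimum. Nlrc5 was measured in T-like, B-like, macrophage-like and Lyz2-led cells, with log2 ratios between -0.60 and 0.75 and no call. Of 15 further class I pathway genes found in the files (other H2-Q, H2-M and H2-T heavy chains, Erap1, the proteasome activator Psme1 and Psme2, and chaperones), 10 were measured in RPE-like cells at 2 months and 0 were 2-fold apart. Among all 11686 measured genes there 0.967% were called lower and 3.05% higher, so 0 of 10 does not set them apart.

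**Figure D1:**
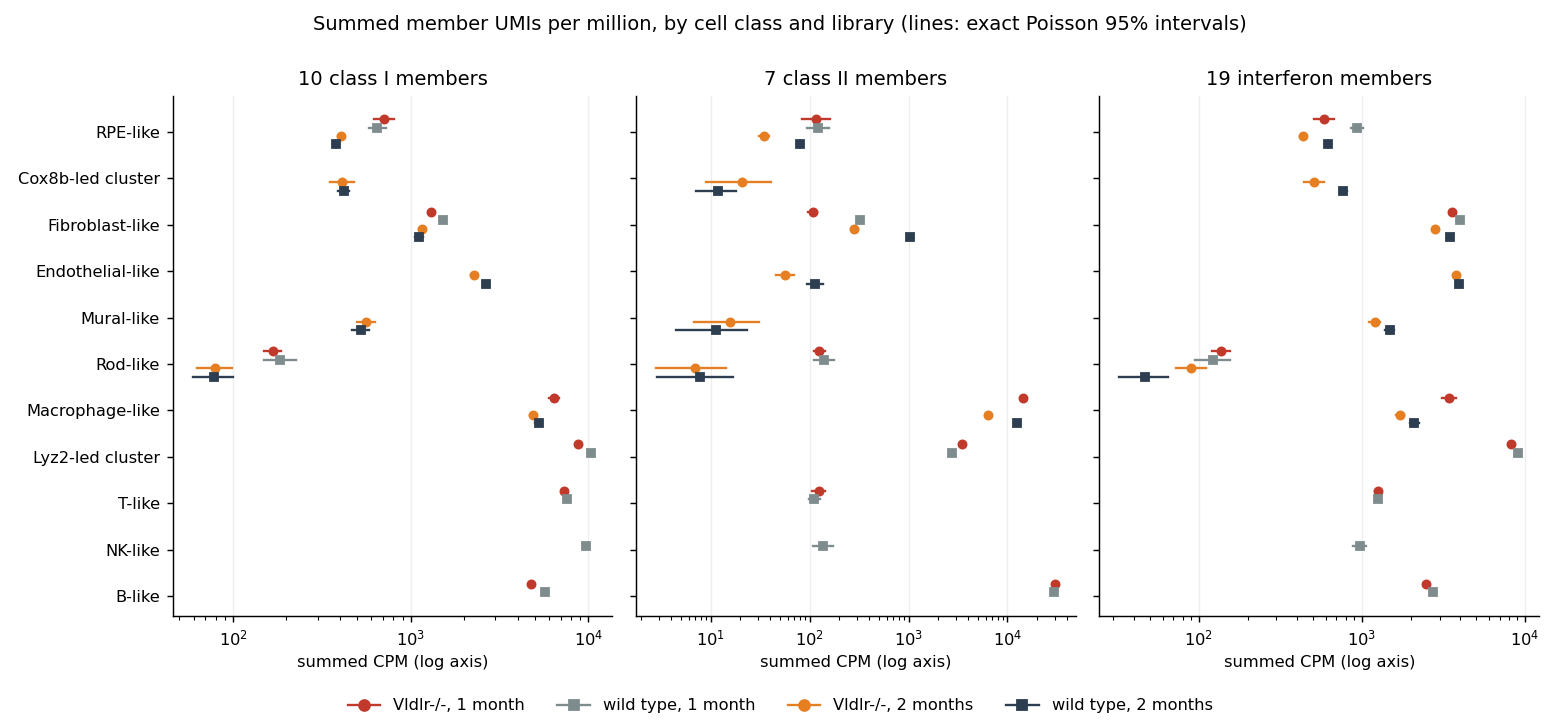
Summed levels of the class I, class II and interferon genes (CPM, log axis) in each cell class of the 4 libraries, the Vldlr-/- circle drawn above the WT square of each age, with lines for exact 95% Poisson intervals. Class II spans the widest range, 30407 CPM in Vldlr-/- B-like cells against 117 CPM in Vldlr-/- RPE-like cells at 1 month. Class I differs less between genotypes than between most cell classes.

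Class II RNA was concentrated in B-like and macrophage-like cells and a few small unnamed clusters. At 2 months much of the class II RNA of RPE-like and fibroblast-like cells lay in a handful of barcodes, as in WT fibroblast-like cells of 1 month. The other barcodes of these 2 classes at 1 month held fewer than 20 class II UMIs. The highest held 3 in RPE-like cells of each library and 6 in Vldlr-/- fibroblast-like cells. In WT fibroblast-like cells the third-highest held 15. B-like cells of 1 month had 30407 CPM of the 7 genes together in Vldlr-/- and 29818 CPM in WT, a log2 ratio of 0.03 (0.01 to 0.05), and none of the 7 was 2-fold apart there, against 1.16% of 7337 measured genes called lower. Cd74 was at 18060.4 CPM in Vldlr-/- and 17299.5 CPM in WT B-like cells (0.06, 0.04 to 0.09). Ciita was at 114 CPM (181 UMIs) in Vldlr-/- and 144 CPM (223 UMIs) in WT B-like cells (-0.33, -0.63 to -0.05). The highest levels stood in a cluster led by Retnla, Lyz1 and Mgl2, with 53517 CPM in 2 Vldlr-/- cells and 68305 CPM in 10 WT cells at 1 month. At 2 months it had 40154 CPM in 7 Vldlr-/- cells and 46329 CPM in 8 WT cells. Those cells were too few for a comparison.

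Macrophage-like cells of 2 months had less class II RNA in the Vldlr-/- library. The 7 genes summed to 6389 CPM (4379 UMIs) in 55 Vldlr-/- cells and 12458 CPM (5472 UMIs) in 58 WT cells, a log2 ratio of -0.96 (-1.02 to -0.91). H2-Aa, the I-A alpha chain, was at 915 CPM (627 UMIs) in Vldlr-/- and 2199 CPM (966 UMIs) in WT macrophage-like cells, a log2 ratio of -1.27 (-1.41 to -1.12). H2-DMb1, a chain of the peptide-loading H2-DM molecule, was at 78.8 CPM (54 UMIs) in Vldlr-/- and 203 CPM (89 UMIs) in WT (-1.36, -1.88 to -0.86). Both passed the 2-fold rule, 2 of 6 measured class II genes, where 3.29% of 5163 measured genes were called lower. H2-Eb1 (-0.96), Cd74 (-0.93), H2-Ab1 (-0.83) and H2-DMa (-0.36) had negative ratios inside 2-fold. Cell depth moved with this difference: the median macrophage-like cell held 10723 UMIs in Vldlr-/- and 6199.5 UMIs in WT. Thinned to 1000 UMIs per cell, the summed ratio was -0.39, and 54.5% of 55 Vldlr-/- cells (40.6 to 68.0%) against 59.2% of 49 WT cells (44.2 to 73.0%) held a class II UMI. Before thinning these shares were 78.2% in Vldlr-/- and 86.2% in WT. In both libraries 5 cells held 50% of the class II UMIs. RPE markers also moved with it, at 515 CPM in Vldlr-/- and 2723 CPM in WT macrophage-like cells, with all 10 detected in both. With clusters drawn at a Leiden resolution of 0.5 both genes were inside 2-fold, H2-DMb1 at -0.90, and H2-Aa was at -0.65 after thinning. The part of depth and of RPE RNA in this difference was not tested further.

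RPE-like cells of 2 months had 3 of 6 measured class II genes lower in the Vldlr-/- library, against 0.967% of 11686 measured genes. H2-Eb1, the I-E beta chain, had 23 UMIs in Vldlr-/- and 167 UMIs in WT cells, a log2 ratio of -1.99 (-2.72 to -1.39). H2-Ab1, the I-A beta chain, had 33 UMIs (4.31 CPM) in Vldlr-/- and 157 UMIs (11.5 CPM) in WT cells. Cd74 had 85 UMIs in Vldlr-/- and 470 in WT cells. These counts sat in very few barcodes. In WT, 1 of 1268 RPE-like barcodes held 841 of the 1098 class II UMIs (76.6%). In Vldlr-/-, 2 of 564 barcodes held 156 of 266 (58.6%). The threshold of at least 20 class II UMIs that picked these barcodes out was chosen after the values were seen. Outside them the class II level was 14.8 CPM in Vldlr-/- and 18.8 CPM in WT RPE-like cells. Leaving out the barcode with the most class II UMIs in each library turned the summed log2 ratio to 0.13, against -1.20 with all barcodes.

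The barcodes rich in class II UMIs also held RNA of leukocytes. The WT barcode had 527 CPM of summed dendritic-cell markers, against 1.53 CPM in the other WT RPE-like barcodes, and 13226 CPM of RPE markers against 67485 CPM. The 2 Vldlr-/- barcodes had 693 CPM of macrophage markers, against 165 CPM in the other Vldlr-/- RPE-like barcodes. Every one of the 3 carried a UMI of a leukocyte marker such as Ptprc or Tyrobp. They were also deep, which makes a marker UMI more likely. The median was 121924 UMIs for the 2 Vldlr-/- barcodes, against 9515.5 in the other Vldlr-/- RPE-like barcodes. The WT barcode held 20868 UMIs, against a median of 8120. The part of depth was not tested. None of the 3 had a doublet score among the highest of its library.

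Fibroblast-like cells had lower class II values in Vldlr-/- at both ages. At 1 month 4 of 6 measured class II genes were lower in Vldlr-/- (H2-Aa, H2-Ab1, H2-Eb1 and Cd74), against 1.6% of 10991 measured genes, and at 2 months the same 4 were, against 1.31% of 9958. At 1 month H2-Eb1 had 32 UMIs (10.8 CPM) in Vldlr-/- and 105 UMIs (44.6 CPM) in WT fibroblast-like cells, a log2 ratio of -2.04 (-2.67 to -1.47). At 2 months it had 95 UMIs (46.5 CPM) in Vldlr-/- and 264 UMIs (188 CPM) in WT, a ratio of -2.01 (-2.37 to -1.67). Barcodes with at least 20 class II UMIs numbered 0 of 493 in Vldlr-/- and 2 of 337 in WT at 1 month, and 2 of 178 in Vldlr-/- and 3 of 137 in WT at 2 months. At 1 month the WT barcodes held 441 of 769 class II UMIs, and the level outside such barcodes was 107 CPM in Vldlr-/- and 141 CPM in WT. At 2 months the class II-rich barcodes held 523 of 577 UMIs in Vldlr-/- and 1431 of 1468 in WT, and the level outside them was 27.3 CPM in Vldlr-/- and 28.4 CPM in WT. They held 8836 CPM of macrophage markers in Vldlr-/- and 4054 CPM in WT, against 320 CPM in the remaining Vldlr-/- and 29.9 CPM in the remaining WT fibroblast-like barcodes. Doublet scores were among the highest of the library for 2 of these 3 WT barcodes, for 0 of the 2 Vldlr-/- barcodes and for 0 of the 2 WT barcodes of 1 month. Removing the highest-scoring barcodes gave a summed ratio of 1.85 at 2 months, where all barcodes gave -1.89, and removing barcodes with a leukocyte-marker UMI gave 0.065. Leaving out the highest barcode alone kept the sum lower, at -1.11 at 1 month and -2.87 at 2 months. That step left a second class II-rich WT barcode in place. The second-highest barcode held 6 class II UMIs in Vldlr-/- and 207 in WT at 1 month, and 85 in Vldlr-/- and 586 in WT at 2 months.

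**Figure D2:**
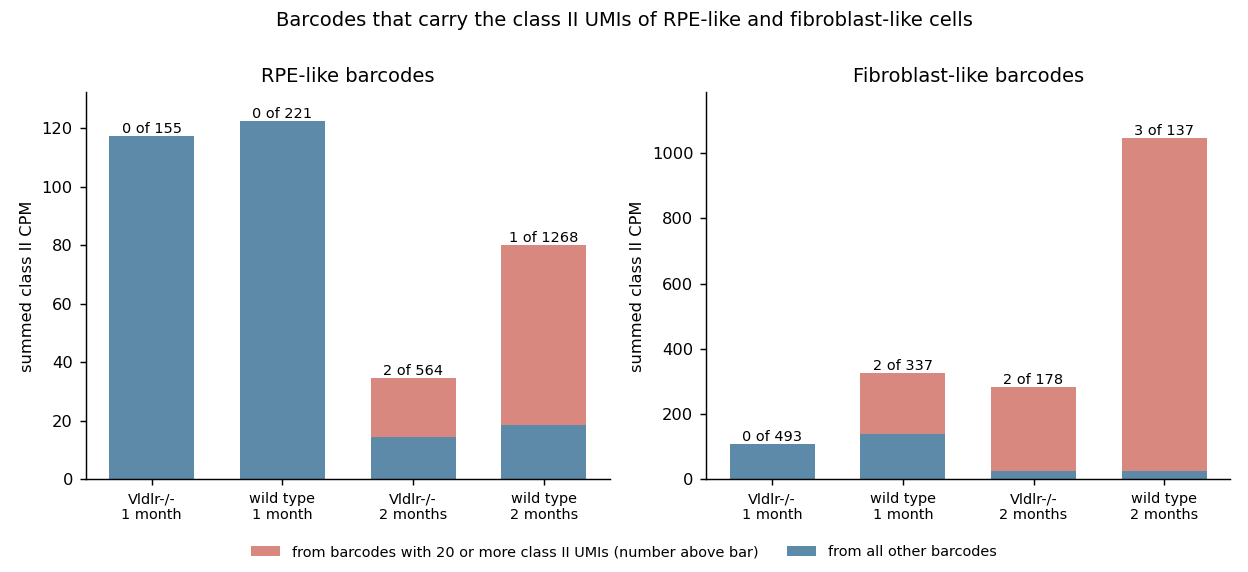
Summed class II level (CPM, bars from 0) of RPE-like and fibroblast-like cells in the 4 libraries, Vldlr-/- left of WT at each age, split into the share from barcodes with at least 20 class II UMIs (red, their number above the bar) and from all other barcodes (blue). At 2 months 1 WT RPE-like barcode gives 841 of 1098 UMIs and 3 WT fibroblast-like barcodes give 1431 of 1468, and the blue parts of the Vldlr-/- and WT bars are of like height.

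Class II UMIs were also counted in rod-like cells, photoreceptors that should lack class II. With cells thinned to 1000 UMIs, 14.2% of 113 Vldlr-/- and 11.7% of 188 WT RPE-like cells held a class II UMI at 1 month. Rod-like cells showed 15.5% of 401 Vldlr-/- and 11.7% of 128 WT cells, so the RPE-like shares at 1 month did not exceed those of rod-like cells and are not read as expression. The median RPE-like cell held 1809 UMIs in Vldlr-/- and 1964 UMIs in WT. At 2 months the shares were 1.72% of 522 Vldlr-/- (0.79 to 3.25%) and 1.62% of 1235 WT RPE-like cells (0.99 to 2.49%), against 0 of 47 Vldlr-/- and 0 of 90 WT rod-like cells, whose upper limits were 7.55% and 4.02%. Unthinned, 15.1% of RPE-like cells held a class II UMI in both the Vldlr-/- and the WT library at 2 months. The intervals of the Vldlr-/- and WT shares overlap at 2 months, while 2 Vldlr-/- barcodes and 1 WT barcode held most of the class II UMIs. Rod-like cells summed to 6.99 CPM in Vldlr-/- and 7.77 CPM in WT at 2 months, below the 14.8 CPM in Vldlr-/- and 18.8 CPM in WT of RPE-like barcodes outside the class II-rich ones.

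The mix of class II genes in RPE-like cells differed from that of antigen-presenting cells. At 2 months RPE-like cells held 84.7 H2-DMb1 UMIs per 100 Cd74 UMIs in Vldlr-/- (72 H2-DMb1 and 85 Cd74 UMIs) and 31.1 in WT (146 and 470 UMIs). Macrophage-like cells of the same libraries held 2.68 in Vldlr-/- and 3.62 in WT. H2-DMb1 was at 9.40 CPM in Vldlr-/- and 10.7 CPM in WT RPE-like cells, a log2 ratio of -0.18 (-0.61 to 0.24). No H2-DMb1 UMI (0) was counted in rod-like cells of either library at 2 months, with exact upper limits of 3.68 CPM in Vldlr-/- and 4.78 CPM in WT. At 1 month H2-DMb1 was at 14.3 CPM (5 UMIs) in Vldlr-/- and 13.4 CPM (7 UMIs) in WT RPE-like cells, and at 1.62 CPM (3 UMIs) in Vldlr-/- and 0 UMIs in WT rod-like cells. T-like cells of 1 month held 66.7 H2-DMa UMIs per 100 Cd74 UMIs in Vldlr-/-, and 80 UMIs of each gene in WT, against 2.63 per 100 in Vldlr-/- and 2.81 in WT B-like cells. These H2-DM chains thus stood in another ratio to Cd74 in RPE-like and T-like cells than in the macrophage-like and B-like cells of the same libraries. A high ratio of H2-DMb1 to Cd74 was not particular to RPE-like cells. At 2 months a cluster led by Gpx3, Penk and Optc held 20 H2-DMb1 and 2 Cd74 UMIs in WT. The Cox8b-led cluster held 7 and 1 in Vldlr-/-, and 11 and 1 in WT. Per 100 Cd74 UMIs, 1-month fibroblast-like cells held 21.8 H2-DMb1 UMIs in Vldlr-/- and 13.6 in WT. The 2-month fibroblast-like values were 9.92 in Vldlr-/- and 3.10 in WT. Endothelial-like cells of 2 months held 3.03 in Vldlr-/- and 7.55 in WT.

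Of the remaining class II values, Cd74 was lower in endothelial-like cells of 2 months, with 33 UMIs (21.8 CPM) in Vldlr-/- and 53 UMIs (57.1 CPM) in WT (-1.38, -2.06 to -0.74), where 2.06% of 8631 measured genes were called lower. Cd74 was detected in 11 Vldlr-/- and 8 WT endothelial-like cells, and its ratio turned to 0.76 with cells thinned to 1000 UMIs. H2-Eb1 was lower in T-like cells of 1 month, with 8 UMIs in Vldlr-/- and 26 in WT (-1.16, -2.57 to -0.03), against 1.22% of 7630 measured genes, and was inside 2-fold at a Leiden resolution of 0.5. In the cluster led by Lyz2, Lst1 and Ear2 at 1 month, Ciita was lower, with 4 UMIs in Vldlr-/- and 26 in WT (-2.14, -4.26 to -0.75), against 2.32% of 7083 measured genes. The class II genes themselves were not lower in that cluster. They summed to 3459 CPM in Vldlr-/- and 2775 CPM in WT (0.32, 0.25 to 0.38), and Cd74 was at 2089 CPM in Vldlr-/- and 1639 CPM in WT. There too 3 Vldlr-/- and 4 WT barcodes held 50% of the class II UMIs.

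Some interferon genes were lower in Vldlr-/- cells of several classes. The 19 genes gave 151 measured ratios over the 13 comparisons, with 21 lower and 5 higher calls. The share of all measured genes ran from 0.967% to 5.29% for lower and from 1.16% to 4.16% for higher calls, so 5 of 151 lies within the range of the background. The classes with lower calls were RPE-like cells at both ages, the Cox8b-led cluster beside them, fibroblast-like and Lyz2-led cells at 1 month, and endothelial-like and mural-like cells at 2 months. The higher calls were 3 in T-like cells, 1 in B-like cells and 1 in RPE-like cells.

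At 2 months, 5 of 16 measured interferon genes were lower in Vldlr-/- RPE-like cells (Ifit1, Usp18, Irf7, Ifi27 and Ifitm3), against the 0.967% of all genes given above, and 1 was higher (Ly6e), against 3.05%. Ifit1, an RNA-binding antiviral effector, had 3 UMIs (0.39 CPM) in 564 Vldlr-/- cells and 50 UMIs (3.65 CPM) in 1268 WT cells, a log2 ratio of -3.01 (-5.54 to -1.59). The 50 WT UMIs came from 37 cells, and no WT cell held more than 3. Usp18, which removes ISG15 from proteins and dampens interferon signalling, had 5 UMIs (0.65 CPM) in Vldlr-/- and 32 UMIs (2.33 CPM) in WT (-1.72, -3.56 to -0.47). Both were spread over many WT cells, and the ratio of each was at least 2-fold lower under each of the 15 alternatives run on it, in which the minimum of 30 UMIs was not applied again. Ifi27, a mitochondrial interferon-induced protein, had 689 UMIs (90.0 CPM) in Vldlr-/- and 2634 UMIs (192 CPM) in WT (-1.09, -1.22 to -0.97). It was found in 34.4% of Vldlr-/- and 48.3% of WT RPE-like cells. Ifitm3, a membrane protein that blocks viral fusion, had 76 UMIs (9.92 CPM) in Vldlr-/- and 276 UMIs (20.1 CPM) in WT (-1.01, -1.41 to -0.65). Both sat close to the 2-fold line: Ifi27 had a ratio of -0.96 in Malat1-rich cells alone, and Ifitm3 had -0.96 at a limit of 15% mitochondrial UMIs.

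Irf7, the factor that amplifies interferon production, had 10 UMIs in Vldlr-/- and 41 in WT RPE-like cells at 2 months (-1.14, -2.36 to -0.17). A single WT barcode held 12 of the 41, and the ratio was inside 2-fold without the highest barcode of each library. Ly6e had 31 UMIs in Vldlr-/- and 21 in WT (1.39, 0.56 to 2.27), but 1 Vldlr-/- barcode held 20 of the 31. Its ratio turned to -0.51 without barcodes carrying a leukocyte-marker UMI. The other measured interferon genes were inside 2-fold. Bst2, the tetherin that retains budding virus, had 709 UMIs (92.6 CPM) in Vldlr-/- and 1880 UMIs (137 CPM) in WT (-0.57, -0.69 to -0.44). Gbp3 (-0.54), Irf9 (-0.49), Ifit3 (-0.44) and Stat2 (-0.35) had negative ratios, whereas Ifitm2 (-0.06), Ifi35 (-0.09) and Ifitm1 (0.19) were near 0. Isg15, Rsad2 and Gbp2 did not reach the UMI minimum in these cells.

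At 1 month 2 of 5 measured interferon genes were lower in Vldlr-/- RPE-like cells, against 2.65% of 3357 measured genes, and 0 were higher, against 3.72%. Bst2 had 26 UMIs (74.4 CPM) in 155 Vldlr-/- cells and 103 UMIs (197 CPM) in 221 WT cells, a log2 ratio of -1.38 (-2.08 to -0.77). Ifitm3 had 9 UMIs (25.8 CPM) in Vldlr-/- and 36 UMIs (68.8 CPM) in WT (-1.36, -2.66 to -0.34). Both were inside 2-fold when at least 1000 genes per barcode were required. Ifi27 had 146 CPM in Vldlr-/- and 219.9 CPM in WT (-0.58, -1.10 to -0.10), and Ifitm2 had 163 CPM in Vldlr-/- and 269.6 CPM in WT (-0.72, -1.19 to -0.27). Ifit3 was at 51.5 CPM in Vldlr-/- and 53.5 CPM in WT (-0.04). Ifitm3 was lower in the Vldlr-/- library at both ages, whereas Bst2 and Ifi27 passed the rule at 1 age each.

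Summed over the 19 genes, RPE-like cells had 589.8 CPM in Vldlr-/- and 937 CPM in WT at 1 month, a log2 ratio of -0.67 (-0.91 to -0.43). At 2 months they had 433 CPM in Vldlr-/- and 623 CPM in WT (-0.52, -0.58 to -0.47). The median measured interferon gene stood at -0.72 at 1 month and -0.46 at 2 months, where the median of all measured genes was 0.01 and 0.07. The lower sum at 2 months was present in each of the 4 RPE-like clusters with enough cells, at -0.75 in the Ttr-led, -0.72 in the Enpp2-led, -0.64 in the Mt3-led and -0.41 in the Ankfn1-led cluster. In the Mt3-led cluster of 1 month it was -0.65. These clusters divide the cells of the same libraries and are not repeats of the comparison. Ifi27 and Bst2, with the levels given above, made up a large part of the sum at 2 months. Thinned to 1000 UMIs, 27.2% of 522 Vldlr-/- cells (23.4 to 31.2%) and 39.2% of 1235 WT cells (36.5 to 42.0%) held an interferon-gene UMI at 2 months. At 1 month 38.9% of 113 Vldlr-/- and 55.3% of 188 WT cells did. The corresponding rod-like shares were 4.26% of 47 Vldlr-/- and 8.89% of 90 WT cells at 2 months, and 13.7% in Vldlr-/- and 11.7% in WT at 1 month.

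Cell quality moved with these values. Of the RPE-like cells of 2 months, 29.6% in Vldlr-/- and 12.3% in WT were rich in Malat1, a nuclear RNA, and 32.8% in Vldlr-/- and 9.15% in WT carried a leukocyte-marker UMI. Summed macrophage markers were at 182 CPM in Vldlr-/- and 157 CPM in WT RPE-like cells, with all 11 detected in both libraries. T markers summed to 0.78 CPM in Vldlr-/- and 1.39 CPM in WT. At 1 month rod markers summed to 727 CPM in Vldlr-/- and 329 CPM in WT RPE-like cells. The part of these measures in the interferon result was not tested beyond the splits that follow. At 2 months the log2 ratio of the interferon sum was -0.41 among Malat1-rich cells, -0.73 among the others and -0.66 without cells carrying a leukocyte-marker UMI.

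A cluster led by Cox8b, Pmel and Trpm1, which carried RPE and pigment genes but stayed unnamed, was compared at 2 months with 36 Vldlr-/- and 155 WT cells. Of 7 measured interferon genes 2 were lower, against 5.29% of 5972 measured genes, and 0 higher, against 1.61%, and the median of all measured genes there was -0.10. Ifitm3 had 4 UMIs (10.4 CPM) in Vldlr-/- and 86 UMIs (50.6 CPM) in WT (-2.13, -4.19 to -0.88). Gbp3, a guanylate-binding GTPase, had 1 UMI in Vldlr-/- and 47 in WT (-2.85, -8.75 to -0.87), a ratio that was -0.23 with cells thinned. The interferon sum was 510.3 CPM in Vldlr-/- and 772 CPM in WT (-0.59, -0.82 to -0.38).

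**Figure D3:**
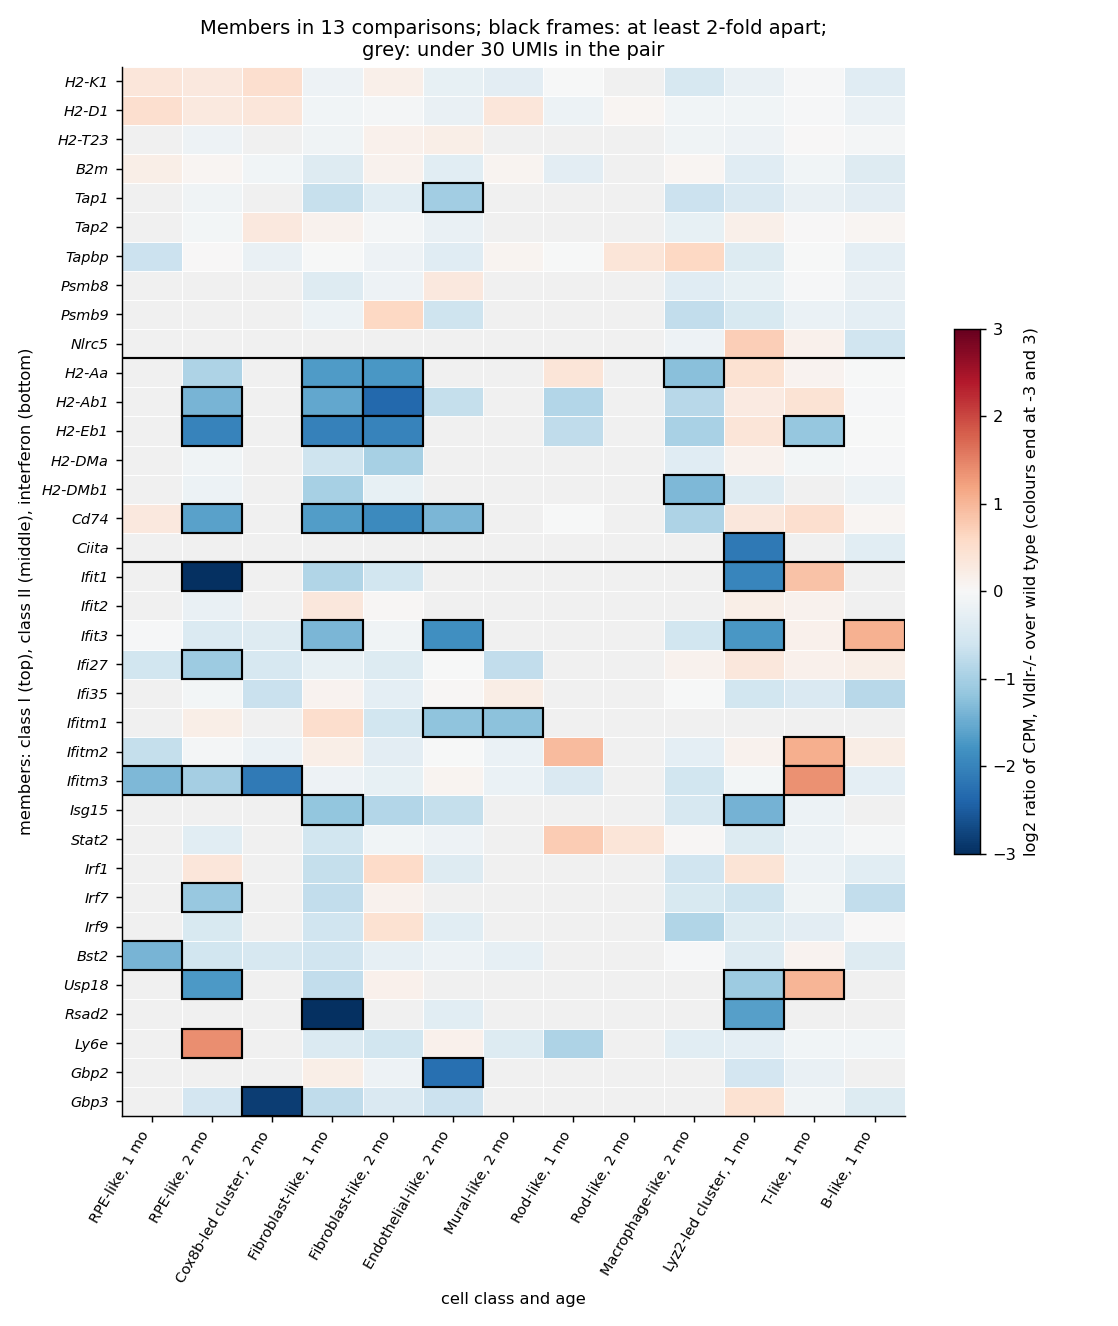
Log2 ratio of Vldlr-/- over WT for each of the 36 genes in the 13 comparisons (colour scale ending at -3 and 3), with grey cells where the pair held fewer than 30 UMIs and black frames around values at least 2-fold apart. Blue (lower in Vldlr-/-) gathers in the class II rows of RPE-like cells of 2 months, fibroblast-like cells and macrophage-like cells. It also marks interferon rows such as Ifit1 (-3.01, RPE-like, 2 months), while class I rows stay pale. In RPE-like cells of 2 months and in fibroblast-like cells most WT class II UMIs lay in few barcodes.

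Fibroblast-like cells of 1 month, 493 Vldlr-/- and 337 WT cells, had 3 of 19 interferon genes lower and 0 higher, against the 1.6% of all genes called lower there and 1.91% called higher. Ifit3, a partner of Ifit1, had 216 UMIs (72.6 CPM) in Vldlr-/- and 445 UMIs (189 CPM) in WT, a log2 ratio of -1.38 (-1.62 to -1.14). Isg15, the ubiquitin-like modifier, had 175 UMIs (58.8 CPM) in Vldlr-/- and 315 UMIs (134 CPM) in WT (-1.18, -1.46 to -0.91). Rsad2, the antiviral enzyme viperin, had 4 UMIs (1.34 CPM) in Vldlr-/- and 30 UMIs (12.7 CPM) in WT (-3.10, -5.21 to -1.74). The ratios of all 3 were at least 2-fold lower under the 12 alternatives run on them, cells with a leukocyte-marker UMI left out among these. Markers of other cells moved with the genotype here: T markers summed to 22.9 CPM in Vldlr-/- (8 of 10 detected) and 95.1 CPM in WT (10 of 10). NK markers were at 6.38 CPM in Vldlr-/- and 23.4 CPM in WT, macrophage markers at 43.0 CPM in Vldlr-/- and 102 CPM in WT, and rod markers at 515 CPM in Vldlr-/- and 238 CPM in WT. Ifit3 was found in 18.1% of Vldlr-/- and 32.3% of WT cells, and Isg15 in 64 of 493 Vldlr-/- and 87 of 337 WT cells. Within 2-fold, Ifit1 stood at 66.9 CPM in Vldlr-/- and 124 CPM in WT (-0.89, -1.16 to -0.63), Gbp3 at -0.77, Irf7 at -0.75, Usp18 at -0.74 and Irf1 at -0.72. The abundant Ifitm members went the other way or stayed level: Ifitm1 had 149.9 CPM in Vldlr-/- and 104 CPM in WT (0.53, 0.30 to 0.76), Ifitm2 0.20 and Ifitm3 -0.15. The sum of the 19 was 3572 CPM in Vldlr-/- and 4033 CPM in WT (-0.18, -0.22 to -0.14), and Ifitm2 and Ifitm3 gave 3410 and 3727 of the 10628 UMIs behind it in Vldlr-/- and 2355 and 3271 of 9498 in WT.

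At 2 months 0 of 18 measured interferon genes were 2-fold apart in fibroblast-like cells (178 Vldlr-/- and 137 WT), against 1.31% called lower and 2.48% called higher among all measured genes. Isg15 had 61 UMIs (29.9 CPM) in Vldlr-/- and 77 UMIs (54.8 CPM) in WT (-0.87, -1.39 to -0.37), and Ifit3 had 47.0 CPM in Vldlr-/- and 51.3 CPM in WT (-0.13, -0.58 to 0.34). Fibroblast-like cells of the 2 ages also fell into different clusters, led by Egr1, Apod and Pi16 at 1 month and mainly by Lsamp at 2 months.

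The Lyz2-led cluster of 1 month, in which macrophage markers summed to 22228 CPM in Vldlr-/- and 19144 CPM in WT, had 104 Vldlr-/- and 130 WT cells. Lyz2 is itself on that marker list, and only 5 of its 11 markers were raised, so the cluster stayed unnamed. There 5 of 18 measured interferon genes were lower, against 2.32% of all measured genes, and 0 were higher, against 1.17%. Ifit1 had 6 UMIs in Vldlr-/- and 34 in WT (-1.99, -3.63 to -0.81). Ifit3 had 24 UMIs (21.7 CPM) in Vldlr-/- and 109 UMIs (73.7 CPM) in WT (-1.74, -2.47 to -1.12). Isg15 had 63 UMIs (57.0 CPM) in Vldlr-/- and 228 UMIs (154 CPM) in WT (-1.43, -1.86 to -1.03). Rsad2 (-1.66) and Usp18 (-1.08) were the other 2. With cells thinned to 1000 UMIs Ifit1 (-0.40), Isg15 (-0.36) and Rsad2 (-0.40) were inside 2-fold. A single WT cell held 58 of the 109 Ifit3 UMIs and 116 of the 228 Isg15 UMIs, and in Vldlr-/- a single cell held 16 of 24 and 28 of 63. Irf7, spread more widely, had 136 CPM in Vldlr-/- and 208 CPM in WT (-0.61, -0.91 to -0.33). The share of cells with an Ifit3 UMI was 6.73% in Vldlr-/- and 21.5% in WT. The interferon sum of this cluster was 8193 CPM in Vldlr-/- and 9068 CPM in WT (-0.15, -0.18 to -0.11).

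Blood vessel cells were compared at 2 months. In endothelial-like cells 3 of 15 measured interferon genes were lower, against 2.06% of all measured genes, and 0 were higher, against 3.19%. Ifit3 had 13 UMIs (8.59 CPM) in Vldlr-/- and 29 UMIs (31.3 CPM) in WT (-1.83, -2.93 to -0.87). Ifitm1 had 99 UMIs (65.4 CPM) in Vldlr-/- and 140 UMIs (151 CPM) in WT (-1.20, -1.59 to -0.82), but -0.64 without cells carrying a leukocyte-marker UMI. Fibroblast markers in these endothelial-like cells summed to 1360 CPM in Vldlr-/- and 536 CPM in WT, all 8 detected in both, and their part was not tested. Gbp2 had 30 UMIs in Vldlr-/- and 89 in WT (-2.26, -2.92 to -1.66), but 76 of the 89 lay in 1 WT cell and the ratio was 0.31 without the highest barcode of each library. Mural-like cells, the pericytes and smooth muscle of vessels, had 1 of 7 measured interferon genes lower, against 2.58% of 5804 genes, and 0 higher, against 2.31%. It was again Ifitm1, with 32 UMIs (62.5 CPM) in Vldlr-/- and 92 UMIs (147 CPM) in WT (-1.22, -1.87 to -0.64). The mural-like interferon sum was 1201 CPM in Vldlr-/- and 1484 CPM in WT (-0.31, -0.45 to -0.16). Ifitm3, abundant in both classes, was near equal, with 1254 CPM in Vldlr-/- and 1193 CPM in WT endothelial-like cells and 463 CPM in Vldlr-/- and 529 CPM in WT mural-like cells. Macrophage-like cells of 2 months had 0 of 12 measured interferon genes 2-fold apart, against 3.29% called lower and 3.78% called higher among all measured genes, and a summed ratio of -0.29 (-0.41 to -0.16).

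Lymphocytes of 1 month had calls in the higher direction. T-like cells (156 Vldlr-/- and 221 WT) had 3 of 17 measured interferon genes higher and 0 lower, against 1.45% of 7630 measured genes called higher. Ifitm3 had 54 UMIs (35.6 CPM) in Vldlr-/- and 29 UMIs (13.7 CPM) in WT (1.37, 0.70 to 2.08), Ifitm2 had 23 UMIs in Vldlr-/- and 15 in WT, and Usp18 had 44 UMIs in Vldlr-/- and 30 in WT (1.03, 0.33 to 1.75). All 3 were inside 2-fold without the highest barcode of each library. B-like cells (263 Vldlr-/- and 255 WT) had 1 of 12 higher, Ifit3 with 22 UMIs in Vldlr-/- and 10 in WT (1.07, -0.03 to 2.35), against 1.16%, and that ratio was inside 2-fold without the highest barcodes too. Ifi35 (-0.84) and Irf7 (-0.74) had the most negative ratios in B-like cells and passed no rule. The interferon sum in T-like cells was 1261 CPM in Vldlr-/- and 1252 CPM in WT (0.01, -0.08 to 0.10).

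Rod-like cells, which carry little RNA of these genes, had 0 of 12 measured members 2-fold apart at 1 month, against 3.23% of 8072 measured genes called lower and 4.16% called higher. At 2 months 0 of 3 were, against 2.13% of 7005 called lower and 3% called higher. The interferon sum of rod-like cells at 2 months was 89.8 CPM in Vldlr-/- and 46.6 CPM in WT (0.93, 0.37 to 1.55), but 44 of the 90 Vldlr-/- UMIs lay in 1 barcode.

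**Figure D4:**
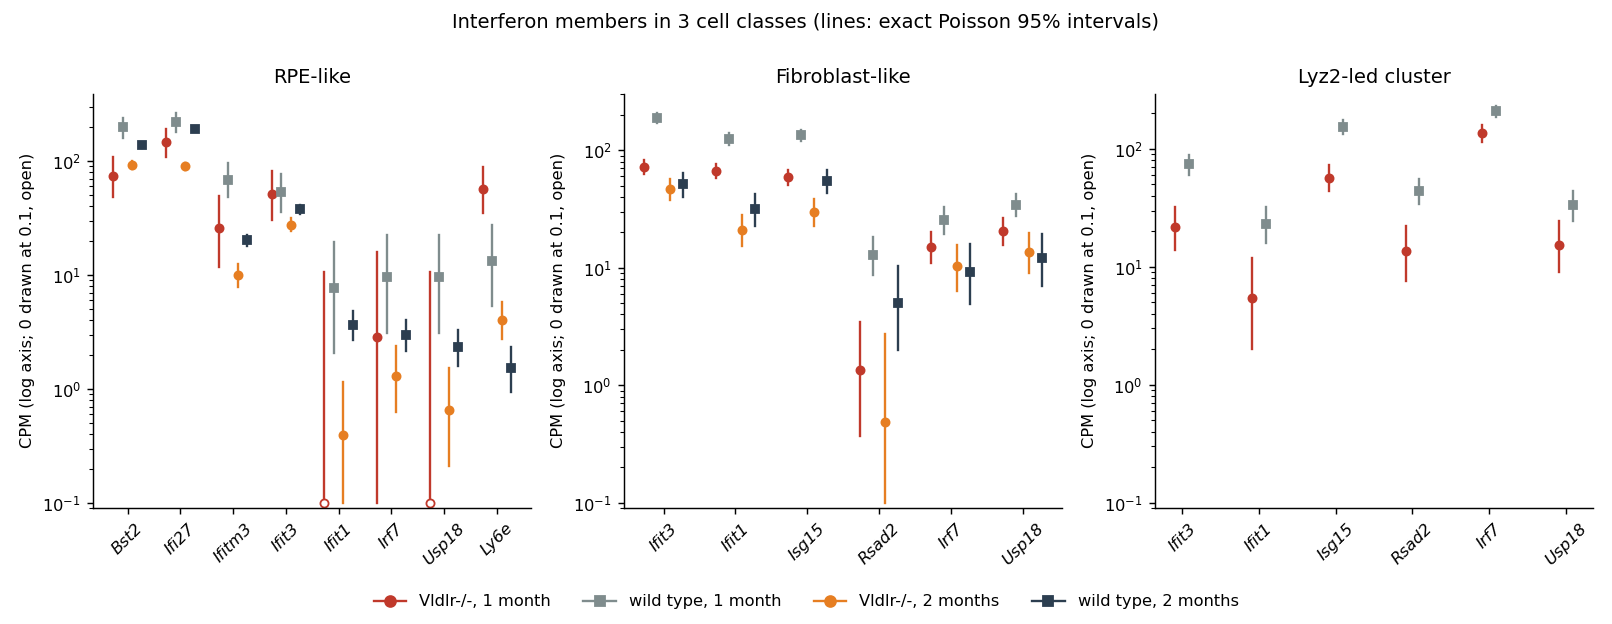
Levels (CPM, log axis, lines for exact 95% Poisson intervals, 0 drawn as an open point at 0.1) of single interferon genes in RPE-like, fibroblast-like and Lyz2-led cells, Vldlr-/- left of WT at each age. In RPE-like cells of 2 months Ifit1 is at 0.39 CPM in Vldlr-/- and 3.65 CPM in WT, and in fibroblast-like cells of 1 month Ifit3 is at 72.6 and 189 CPM.

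The wider interferon programme was read from a list of 53 further target genes, 50 of them in the files. In RPE-like cells of 2 months 20 were measured, of which 2 were lower, against 0.967% of all measured genes, and 0 higher. Xaf1, an interferon-induced apoptosis factor, had 32 UMIs in Vldlr-/- and 158 in WT (-1.45, -2.06 to -0.91). Gbp6 had 8 UMIs in Vldlr-/- and 42 in WT (-1.48, -2.85 to -0.44). In fibroblast-like cells of 1 month 32 were measured, of which 6 were lower, against 1.6% of all, and 1 higher, against 1.91%. Ifi47, an immunity-related GTPase, had 30 UMIs in Vldlr-/- and 67 in WT (-1.48, -2.17 to -0.86), and Cmpk2 had 29 in Vldlr-/- and 59 in WT (-1.35, -2.06 to -0.70). Ly6c1 was the higher one, with 258 UMIs in Vldlr-/- and 60 in WT (1.76, 1.36 to 2.20). In the Lyz2-led cluster 8 of 38 were lower, against 2.32% of all, and 0 higher, among them Lgals3bp with 47 UMIs in Vldlr-/- and 194 in WT (-1.61) and Oasl2 with 42 UMIs in Vldlr-/- and 146 in WT (-1.37). In fibroblast-like cells of 2 months 0 of 29 were lower and 4 higher, against 2.48% of all called higher, and in T-like cells of 1 month 0 of 35 were called in either direction. Endothelial-like cells had 6 of 33 lower, against 2.06%, and 1 higher, against 3.19%. Among these lower genes were Cxcl9 (0 UMIs in Vldlr-/- and 107 in WT) and Cxcl10 (2 in Vldlr-/- and 278 in WT). Nearly all WT UMIs of both lay in a single WT cell. B-like cells had 2 of 27 lower and 1 higher, against 1.16% in each direction. In the other 6 comparisons 0 were called. Of 30 interferon ligands, receptors and kinases in the files, 16 were measured in RPE-like cells at 2 months, with 0 lower and 1 higher, against 3.05% of all.

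Ifit1, Ifit2 and Ifit3 lie 7.3 to 7.39 Mb from Vldlr on chromosome 19 (GENCODE M21, GRCm38), the chromosome that carries the deleted allele. Of 7 measured genes within 1 Mb of Ifit1 in RPE-like cells of 2 months, 0 were lower and their median log2 ratio was 0.10. Of 8 within 1 Mb of Ifit3 in fibroblast-like cells of 1 month 1 was lower (Acta2), with a median of -0.07. Around Ifit1 and Ifit3 in Lyz2-led cells of 1 month 1 of 5 was lower (Ifit3b), with a median of -0.39. Around Ifit3 in endothelial-like cells of 2 months 1 of 6 was lower (Ch25h) and 1 higher (Stambpl1), with a median of 0.08. Beside Irf7 and Ifitm3 on chromosome 7, Lrrc56 and Cend1 were also lower in RPE-like cells of 2 months, 2 of 34 and 2 of 40 neighbours. Rsad2 lies beside Cmpk2, itself an interferon target. In fibroblast-like cells of 1 month 2 of 3 measured neighbours of Rsad2 were lower (Cmpk2 and Sox11), with a median of -1.35. In Lyz2-led cells 1 of 2 was lower (Cmpk2). A difference of strain background around the deleted allele was not tested. All 36 genes matched the annotation, 15 were overlapped by another counted gene, and for Tapbp, H2-DMa and Irf9 the overlap was on the same strand. Values of these genes, and of genes with close copies (Ifit3 and Ifit3b, Ifit1 and its paralogs, the Ifitm genes, the H2 heavy chains), are uncertain to the extent that reads were shared.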

How the data were processed

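Counts were deposited by the authors as whole numbers of UMIs for each gene in each barcode, with no normalization. Per the file headers, Cell Ranger 7.0.1 wrote the tables of 2 months and 6.0.2 those of 1 month. Different names stand in the submitters' processing notes: mm9, Seurat 4.0 and Cell Ranger 3.0. How introns and strand were treated in counting: not given in the sources used here. Among 32285 gene identifiers 32158 matched GENCODE M21 (GRCm38), which gave the neighbours and distances printed. The tables hold no coordinates.

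Barcodes under 300 detected genes, or with over 30% of UMIs from mitochondrial genes, were left out. Scrublet (scanpy 1.11.5) marked 26 of 6555 as doublets (0.397%), too few to count as having worked, and an alternative removed the 108 highest scores. Counts were scaled to 10000 per cell. From 2000 variable genes without the 36 members, 30 principal components and 15 neighbours gave Leiden clusters at resolution 1.0 (leidenalg 0.10.2, igraph 0.11.9), named by markers. UMIs were summed per class and library and scaled to 1000000 (CPM). Ratios added 0.5 counts, and classes needed 30 cells per library and genes 30 UMIs per pair. Depth per kept barcode had medians of 5084 (Vldlr-/-) and 6036 (WT) UMIs at 1 month and 9029 (Vldlr-/-) and 8021 (WT) at 2 months. No test was made with 1 library per group, and a fit with genotype and age as terms was not run. The calculation was tested on simulated counts.

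All 36 members are named. Other pathway genes came from lists, at most 3 per list and comparison by size of ratio. Members, lists and markers were chosen with earlier results of these data known, and several lists came from such an earlier reading. Rules for the unnamed clusters and the barcodes with at least 20 class II UMIs were chosen after values were seen. Calculations ran under Python 3.11.15 with anndata 0.12.19, pandas 2.3.3, scikit-learn 1.9.0, scipy 1.17.1 and numpy 2.4.6. Figures were drawn by matplotlib 3.10.9.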

Additional observations from a re-analysis of the deposited data

Results flagged for a closer look

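Ifit3, Ifitm3 and Usp18 were at least 2-fold lower in Vldlr-/- cells of some classes and at least 2-fold higher in others, each class being 1 library per group. The difference between classes was not tested. Ifit3 had a log2 ratio of 1.07 in B-like cells of 1 month, against -1.38 in fibroblast-like cells and -1.74 in the Lyz2-led cluster of 1 month and -1.83 in endothelial-like cells of 2 months. Ifitm3 had 1.37 in T-like cells of 1 month, against -1.36 in RPE-like cells of 1 month, -1.01 in RPE-like cells of 2 months and -2.13 in the Cox8b-led cluster of 2 months. Usp18 had 1.03 in T-like cells of 1 month, against -1.72 in RPE-like cells of 2 months and -1.08 in the Lyz2-led cluster of 1 month. The higher values in lymphocytes rested on 32 to 83 UMIs and were inside 2-fold without the highest barcode of each library, whereas Ifit3 in fibroblast-like, endothelial-like and Lyz2-led cells, Ifitm3 in the Cox8b-led cluster and Usp18 in RPE-like and Lyz2-led cells had ratios at least 2-fold lower under every alternative run on them.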

How the results depend on the processing

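No paired analysis was possible because each group was 1 library. Of 43 calls, each of 1 member in 1 comparison, 11 kept a ratio at least 2-fold apart under every alternative run, with no UMI minimum applied again, and 10 changed sign under at least 1. Further single-gene values moved beyond their intervals in 359 cases and kept within them in 3926, and 176 summary values kept. Leaving out the highest barcode was chosen after seeing the data. Causes were not tested.

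Class II sums depended most on the processing. In RPE-like cells the log2 ratio was -1.03 at 1 month with free RNA subtracted. At 2 months it was -1.54 thinned to 1000 UMIs, -0.070 without leukocyte-marked cells, -2.32 in Malat1-rich cells, -0.49 in Malat1-poor cells and 0.13 without the highest barcode of each library. In fibroblast-like cells of 1 month it was -0.81 thinned, -0.33 without leukocyte-marked cells, -2.99 with free RNA subtracted and -1.11 without the highest barcode. At 2 months it was 1.85 with the highest doublet scores removed, -1.14 thinned, 0.065 without leukocyte-marked cells and -2.87 without the highest barcode. In endothelial-like cells it was -1.63 without leukocyte-marked cells. In macrophage-like cells it was -1.02 at 1000 genes per barcode, -0.74 with members among the clustered genes, -0.59 at resolution 0.5, -0.39 thinned and -1.08 without the highest barcode.

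The interferon sums that moved kept their sign, though some thinned intervals spanned 0. In RPE-like cells of 2 months they were -0.59 centred on the median of all genes, -0.75 thinned, -0.66 without leukocyte-marked cells, -0.41 for Malat1-rich cells and -0.73 for Malat1-poor ones. In fibroblast-like cells they were -0.054 thinned (-0.16 to 0.06) and -0.31 without leukocyte-marked cells at 1 month, and -0.24 thinned at 2 months. In macrophage-like cells they were -0.70 with members clustered, -0.65 at resolution 0.5 and -0.088 thinned (-0.48 to 0.31).

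Members called lower in RPE-like cells of 1 month, 2 in the main setting, numbered 0 at 1000 genes per barcode, 1 thinned, 4 at a minimum of 10 UMIs and 1 at 100 UMIs. At 2 months, 8 in the main setting, they numbered 1 thinned, 5 without leukocyte-marked cells, 5 for Malat1-rich cells, 4 for Malat1-poor ones, 5 at 100 UMIs and 4 without the highest barcode. In fibroblast-like cells of 1 month, 7 numbered 2 thinned and 2 without leukocyte-marked cells. At 2 months, 4 numbered 0 without the highest doublet scores, 1 thinned and 1 without leukocyte-marked cells. In endothelial-like cells 5 numbered 0 thinned, 8 at 10 UMIs, 2 at 100 UMIs and 2 without the highest barcode. In macrophage-like cells 2 numbered 4 with members clustered, 0 thinned and 4 without the highest barcode. Thinning leaves few UMIs per gene and so fewer genes measured.

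Signs of single genes turned as follows. In RPE-like cells of 2 months H2-Ab1 was 0.083 without leukocyte-marked cells and 0.29 without the highest barcode, Cd74 was 0.96 without the highest barcode, and Ly6e was -0.63 thinned, -0.51 without leukocyte-marked cells and -0.52 in Malat1-poor cells. In fibroblast-like cells H2-Ab1 was 0.20 without leukocyte-marked cells at 1 month. With the highest doublet scores removed at 2 months, H2-Aa was 3.31, H2-Ab1 1.56, H2-Eb1 1.87 and Cd74 2.08. Without leukocyte-marked cells at 2 months, H2-Aa was 0.29, H2-Ab1 1.39 and Cd74 0.54. In endothelial-like cells Cd74 was 0.76 thinned and Gbp2 0.31 without the highest barcode.

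With 1 library per group no value has a replicate check, and intervals cover counting error only.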

Other observations

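Chemokines induced by interferon gamma lay in a single WT endothelial-like cell of 2 months. Cxcl10 had 2 UMIs in 97 Vldlr-/- cells and 278 UMIs in 74 WT cells, and Cxcl9 had 0 UMIs in Vldlr-/- and 107 UMIs in WT cells. One WT cell held 277 of the Cxcl10 UMIs and all 107 of the Cxcl9 UMIs.

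In RPE-like cells of 2 months Ctss, the protease that cleaves the invariant chain, had 63 UMIs in Vldlr-/- and 19 in WT (log2 ratio 2.54, 1.81 to 3.39). It was the 1 of 11 measured class II pathway genes that was 2-fold apart there. Among all 11686 measured genes 3.05% were called higher and 0.967% lower. A leukocyte-marker UMI was carried by 32.8% of Vldlr-/- and 9.15% of WT RPE-like cells, and the part of leukocyte RNA in the Ctss ratio was not tested. Irf8, a factor of the myeloid and lymphoid lineages, had 36 UMIs in Vldlr-/- and 2 in WT, and 30 of the 36 lay in 1 Vldlr-/- barcode. In fibroblast-like cells of 2 months Ly6c1 was higher in Vldlr-/-, with 77 UMIs against 14 in WT (1.88, 1.09 to 2.86), as were Gbp5 with 27 against 7 (1.33) and Iigp1 with 48 against 13.

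Over 29 units of a class in a library and 14084 genes, the genes whose level followed the summed class I level most closely were Sh3bgrl3 (Pearson r = 0.97), Psmb10, Rhog, Arpc1b and Arpc3. For class II they were Wdfy4 (0.92), Ly86, Pkib, Cd83 and Unc93b1, and for the interferon sum Tor3a (0.92), Stat6, Gnai2, Rhoa and Plekho2. The units share 4 libraries and their depths, so the coefficients are a description.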
